A study of Mus musculus with 1 sample.

Results

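The extracellular matrix genes described here are the chains of collagens and laminins with a small set of matrix glycoproteins, measured across the cell classes of the postnatal mouse adrenal. Members were taken by gene symbol alone: every listed gene named as a collagen alpha chain or as a laminin alpha, beta or gamma chain, and *Sparc*, *Postn*, *Fn1*, *Fbln1*, *Fbln2*, *Fbln5* and *Timp3*. This gave 62 of the 32285 genes in the count table, of which 44 encode collagen chains, 11 encode laminin chains and 7 are the genes added by name. Cells for the single library came from the adrenal medulla of animals with a wild-type genotype at P15 (postnatal day 15). Tissue from 10 adrenals, taken from 5 mice of mixed sex, was pooled after fat and excess cortex had been trimmed by hand, and was dissociated with an enzyme mix that contained Collagenase II before 10000 viable cells were loaded. No treatment was given, there is no second genotype, and the pooled animals cannot be told apart in the counts.

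Collagens are trimers of alpha chains, and the chains a cell transcribes limit which trimers it can assemble. Collagen IV and the laminins, the latter being trimers of an alpha, a beta and a gamma chain, form the sheet-like basement membrane that lies under endothelium and around endocrine and glial cells, whereas the fibrillar collagens form the cables of connective tissue and are made chiefly by fibroblasts. Sustentacular cells are the glia-like support cells of the adrenal medulla, and chromaffin cells are its adrenaline and noradrenaline secreting cells.

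The library held 11214 barcodes with 500 to 33809 UMIs each (unique molecular identifiers, each counting 1 transcript molecule tagged near its 3′ end), and 10139 cells passed the filters on gene number and mitochondrial share. Clustering was run without the members among its variable genes, and clusters were named from marker lists that hold no member, so no member's level decided a class. The classes comprised 1663 adrenaline chromaffin-like, 386 noradrenaline chromaffin-like, 139 cycling chromaffin-like, 92 transitioning adrenaline-like, 330 transitioning noradrenaline-like, 179 sustentacular-like, 3720 cortex-like, 2143 endothelial-like, 48 fibroblast-like and 572 immune-like cells. Although the tissue was labelled adrenal medulla, 36.69% of the cells were cortex-like, and 867 cells stayed in no class, 57.79% of which were called doublets. Median depth ranged from 1116 UMIs per fibroblast-like cell to 6298.5 per transitioning adrenaline-like cell. Levels are given as CPM, the UMIs of a gene summed over a class per 1000000 UMIs of that class. Because the method tags each transcript once at its end, these values were not divided by gene length. With 1 library there are no replicates, so no test was made, and the exact 95% intervals given with values cover counting error only.

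Some classes carried RNA of other types, and those values bear on what follows. Fibroblast-like cells had 7 of 8 fibroblast markers at a summed 4063 CPM, but also 7 of 8 mural markers (pericytes and smooth muscle) at 1710 CPM and chromaffin markers at 6142 CPM. No cluster had mural markers alone, so fibroblast and mural cells cannot be told apart in this class. A second stromal cluster of 45 cells, 0 of them called doublets, had endothelial (5653 CPM), fibroblast (1025 CPM) and mural markers (839.9 CPM) together and was left in no class. In sustentacular-like cells, the 6 sustentacular markers summed to 3898 CPM, chromaffin markers to 2771 CPM (mostly *Chgb*, against 82549 CPM in adrenaline chromaffin-like cells) and 4 markers of myelinating Schwann cells to 1467 CPM, mostly *Pmp22*. The cortex markers there summed to 429 CPM, the immune markers to 216 CPM, the fibroblast markers to 124 CPM and the endothelial markers to 17.7 CPM. A UMI of *Dcn*, *Lum*, *Pdgfra* or *Dpt* was held by 1 sustentacular-like cell of 179, against 40 of 48 fibroblast-like cells. These are 4 of the 8 fibroblast markers, so cells that held only the others are not in this count. In sustentacular-like cells 1 UMI equals 4.419 CPM. The 124 CPM over all 8 markers thus include UMIs of the others, unless that 1 cell held them all. In immune-like cells the endothelial markers reached 1031 CPM, and in cycling chromaffin-like cells, 12.95% of which were called doublets, the cortex markers reached 1986 CPM beside cycling markers at 3109 CPM. The 4 haemoglobin genes, markers of red cells, summed to 8909 CPM in sustentacular-like cells against 45.3 to 2947 CPM in the other classes. The part of these transcripts in the members' levels was not tested except where a value is given beside the result.

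Of the 62 members, 40 had at least 100 UMIs in the cells that passed the filters, 19 had 1 to 99 UMIs and 3 had none. Together they gave 286797 UMIs, 0.5894% of all UMIs in these cells, and *Sparc* alone gave 69.21% of them. Summed over all members, the level was 204 CPM in adrenaline and 243 CPM in noradrenaline chromaffin-like cells. The transitioning classes stood higher, at 4001 CPM for adrenaline and 5776 CPM for noradrenaline. Sustentacular-like cells reached 30797 CPM and fibroblast-like cells 27552 CPM, followed by endothelial-like cells at 12614 CPM and cortex-like cells at 6338 CPM. Immune-like cells had 2077 CPM and cycling chromaffin-like cells 1743 CPM. As a share of a cell's transcripts, matrix genes were thus highest in the glia-like and the connective tissue classes and lowest in the secretory chromaffin classes. The sustentacular-like and fibroblast-like classes were also the shallowest, and counted per cell the leading classes lay closer together. Member UMIs per cell were 38.9 in sustentacular-like, 41.96 in fibroblast-like, 41.9 in cortex-like and 33.6 in endothelial-like cells. They were 33.7 in transitioning noradrenaline-like and 28.8 in transitioning adrenaline-like cells, and 0.901 in adrenaline and 0.819 in noradrenaline chromaffin-like cells. Without *Sparc* the leading classes lay further apart, at 21.9 in sustentacular-like, 29.3 in fibroblast-like, 7.9 in cortex-like and 14.9 in endothelial-like cells. Transitioning noradrenaline-like cells then held 19.31 and transitioning adrenaline-like cells 15.67, both above the endothelial-like and cortex-like values. The gap to the mature chromaffin-like cells was therefore seen on both scales. Orders between the other classes refer to CPM unless stated.

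Of the 40 members with at least 100 UMIs, 19 were highest in sustentacular-like, 18 in fibroblast-like, 2 in endothelial-like and 1 in adrenaline chromaffin-like cells. For 25 of them, the interval of the highest class did not overlap that of the next. A level of at least 100 CPM was reached by 23 of the 40 in sustentacular-like, 20 in fibroblast-like, 10 in transitioning noradrenaline-like, 7 in endothelial-like, 6 in transitioning adrenaline-like and 4 in cortex-like cells, and by 0 in either mature chromaffin class. By UMIs per cell, of the 37 members with at least 100 UMIs within the classes, 9 were highest in fibroblast-like, 7 in sustentacular-like, 7 in cortex-like, 5 in endothelial-like, 4 in transitioning adrenaline-like, 4 in transitioning noradrenaline-like and 1 in cycling chromaffin-like cells. The heat map of levels by class shows the CPM values as a pair of broad columns for the sustentacular-like and fibroblast-like classes and narrower sets for endothelial-like and cortex-like cells.

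**Figure D1:**
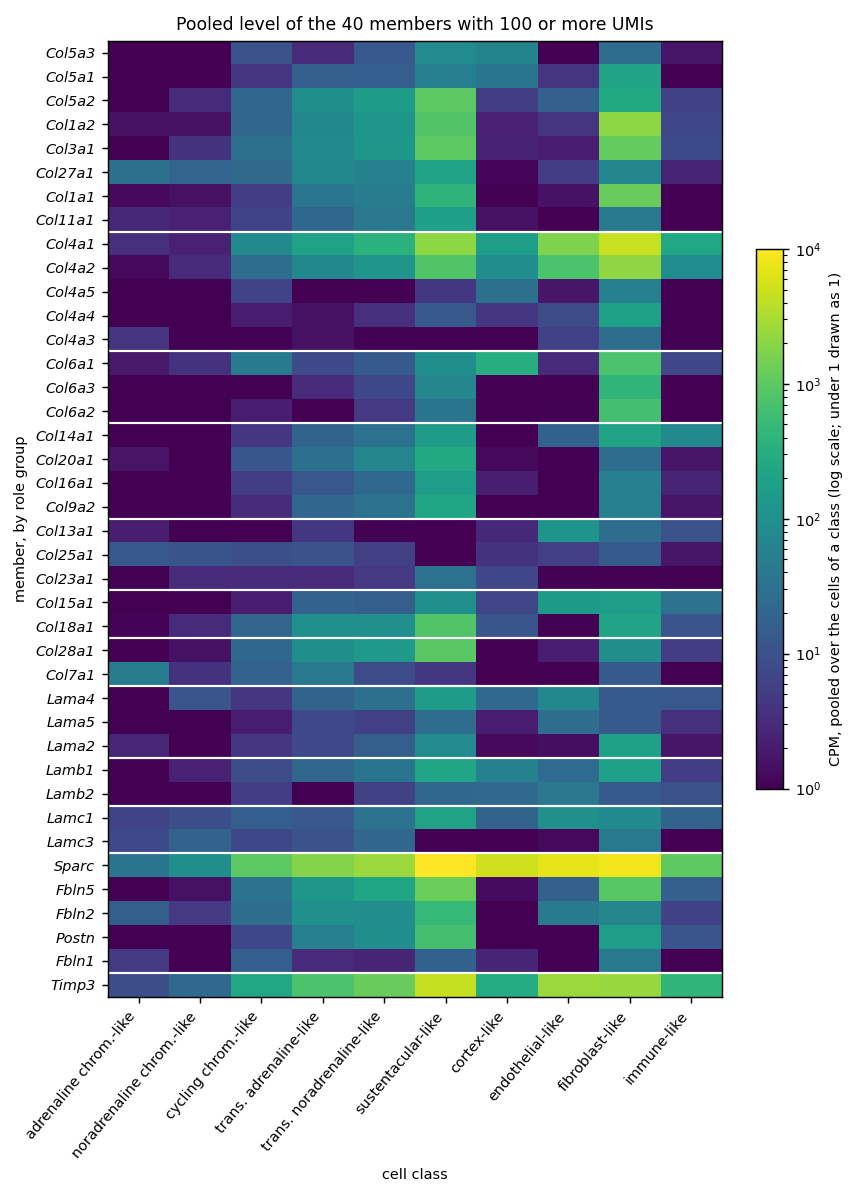
Level in CPM (log colour scale) of the 40 members with at least 100 UMIs in each of the 10 cell classes, with values under 1 CPM drawn as 1. The sustentacular-like and fibroblast-like columns are the fullest, with 23 and 20 members at 100 CPM or more, against 0 in either mature chromaffin-like column. In the fibroblast-like column 1 UMI equals 13.68 CPM.

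The major basement membrane collagen, collagen IV, is built chiefly from the products of *Col4a1* and *Col4a2*. *Col4a1* was measured at 4556 CPM (95% interval 4079 to 5072) in fibroblast-like, 2108 CPM (95% interval 1923 to 2306) in sustentacular-like and 1692 CPM (95% interval 1659 to 1726) in endothelial-like cells, without overlap. By UMIs per cell, fibroblast-like cells again led at 6.94, but endothelial-like cells, at 4.51, stood above sustentacular-like cells, at 2.67. The level was lower in cortex-like cells at 173 CPM and immune-like cells at 243 CPM, and reached 3.41 CPM in adrenaline and 2.3 CPM in noradrenaline chromaffin-like cells. *Col4a2* had the same order by CPM, at 2202 CPM in fibroblast-like, 826 CPM in sustentacular-like and 735 CPM in endothelial-like cells, the last pair overlapping, and also turned per cell, at 3.35, 1.04 and 1.96 UMIs. A UMI of *Col4a1* was found in 87.8% (95% interval 86.4 to 89.2) of endothelial-like cells, against 1.38% of adrenaline chromaffin-like cells, taken as the background class and deeper at a median of 3166 against 2012 UMIs. With each cell thinned to 1000 UMIs, the shares were 75.9% and 0.303%.

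*Col4a1* and *Col4a2* form a divergent gene pair on chromosome 8, and their promoter windows are shown because both chains followed the same order in the leading classes. The genes also overlap at their 5′ ends in GENCODE vM21. In RefSeq's annotation of GRCm38.p6, the start sites lie 21 bases apart on opposite strands. Each window runs 300 bases, from 250 before to 50 after the start, at chr8:11312777-11313076 on the minus strand and chr8:11312555-11312854 on the plus strand. Capitals mark the 78 bases that both windows hold, read on each gene's own strand from 5′ to 3′.
Col4a1: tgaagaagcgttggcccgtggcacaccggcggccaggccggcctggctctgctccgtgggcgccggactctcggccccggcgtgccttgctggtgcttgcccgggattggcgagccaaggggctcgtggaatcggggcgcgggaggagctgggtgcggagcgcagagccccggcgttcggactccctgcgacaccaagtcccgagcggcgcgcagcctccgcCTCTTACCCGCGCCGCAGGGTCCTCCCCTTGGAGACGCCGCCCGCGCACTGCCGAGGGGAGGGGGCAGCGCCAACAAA
Col4a2: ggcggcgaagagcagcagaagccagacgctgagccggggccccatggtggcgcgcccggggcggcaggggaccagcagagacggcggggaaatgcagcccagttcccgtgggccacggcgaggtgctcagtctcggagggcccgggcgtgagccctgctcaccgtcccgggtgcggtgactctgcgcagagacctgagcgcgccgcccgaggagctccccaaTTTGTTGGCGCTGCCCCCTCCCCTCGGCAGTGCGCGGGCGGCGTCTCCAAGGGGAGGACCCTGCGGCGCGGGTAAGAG

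The *Col4a1* window is 74% and the *Col4a2* window 73.67% G or C, against a median of 52.67% over all 32851 windows. On both strands, the GC box GGGCGG was found once in the *Col4a1* window and 3 times in the *Col4a2* window, and the CCAAT box CCAAT once in each, with neither window holding the TATA box TATAAA. Over all windows, 35.66% held GGGCGG, 37.41% held CCAAT and 13.62% held TATAAA, and over the 53 windows of the 46 members that matched the table, the shares were 56.6%, 30.19% and 11.32%. *Col4a1* UMIs outnumbered those of *Col4a2* in 9 of the 10 classes. The ratio was 2.3 (95% interval 2.22 to 2.39) in endothelial-like, 2.55 (95% interval 2.15 to 3.04) in sustentacular-like, 2.07 (95% interval 1.71 to 2.51) in fibroblast-like and 1.91 (95% interval 1.81 to 2.01) in cortex-like cells. Noradrenaline chromaffin-like cells, with 3 and 4 UMIs, were too thinly covered to give an order. In these 4 classes the ratio thus ran from 1.91 to 2.55, while the *Col4a1* level ranged from 173 to 4556 CPM. The cortex-like and endothelial-like ratios did not overlap. Ratios were higher elsewhere, at 2.87 (95% interval 2.47 to 3.34) in transitioning noradrenaline-like and 2.77 in transitioning adrenaline-like cells. They were 2.8 in immune-like, 2.78 in adrenaline chromaffin-like and 3.08 in cycling chromaffin-like cells.

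The other collagen IV chains, which form specialised networks in kidney, lung and smooth muscle basement membranes, were far lower. *Col4a4* reached 192 CPM (95% interval 105 to 321) in fibroblast-like cells from 14 UMIs, and stayed at or under 13.3 CPM in every other class. *Col4a5* was at 30.4 CPM (95% interval 28.2 to 32.6) in cortex-like cells and 54.7 CPM in fibroblast-like cells, from 4 UMIs, and at 0 UMIs in both mature chromaffin classes and in immune-like cells. *Col4a3* was highest in fibroblast-like cells at 27.4 CPM from 2 UMIs, with 5.96 CPM in endothelial-like and 4.09 CPM in adrenaline chromaffin-like cells. *Col4a6*, the divergent partner of *Col4a5* with its start site 1343 bases away, had 59 UMIs in all, with 2.11 CPM in cortex-like cells. None of these 4 chains came near the levels of *Col4a1* and *Col4a2* in the leading classes.

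**Figure D2:**
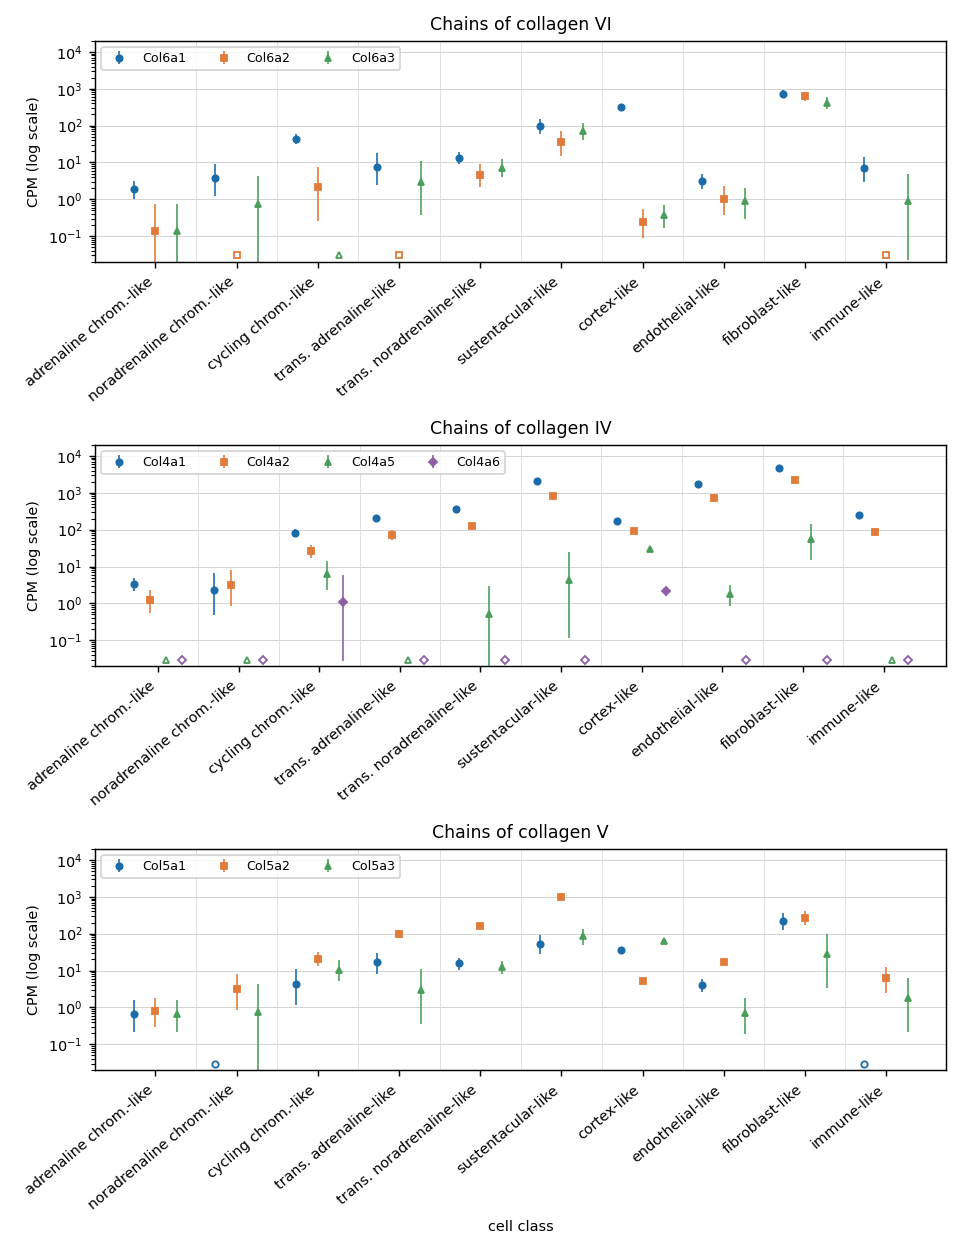
Levels in CPM (log axis) of collagen chains that share trimers, by cell class, with bars for exact 95% intervals and open symbols at the bottom of the axis for 0 UMIs. *Col4a1* and *Col4a2* run in parallel, whereas *Col6a1* stands at 312 CPM in cortex-like cells with *Col6a2* at 0.244 CPM.

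Laminins bind cells to the basement membrane, and the type of each trimer is set by its chains. Among the alpha chains, *Lama4*, found in vascular and nerve laminins, was at 155 CPM (95% interval 108 to 215) in sustentacular-like and 74.5 CPM (95% interval 67.5 to 81.9) in endothelial-like cells, with 23.6 CPM in cortex-like cells. It was also higher in noradrenaline than in adrenaline chromaffin-like cells, at 11.5 CPM (95% interval 6.45 to 19) against 0.273 CPM (95% interval 0.033 to 0.985), on 15 and 2 UMIs, which did not overlap. *Lama2*, the alpha chain of muscle and nerve laminin, was at 192 CPM (95% interval 105 to 321) in fibroblast-like and 83.96 CPM (95% interval 50.5 to 131) in sustentacular-like cells and at 1.4 CPM in endothelial-like cells. *Lama5*, another vascular alpha chain, was at 26.5 CPM in sustentacular-like cells from 6 UMIs and 26.4 CPM (95% interval 22.4 to 31.02) in endothelial-like cells, which overlapped. Both classes thus held *Lama4* and *Lama5*, and the glia-like class also held *Lama2*.

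Of the beta and gamma chains, *Lamb1* was at 221 CPM (95% interval 164 to 291) in sustentacular-like, 192 CPM (95% interval 105 to 321) in fibroblast-like and 58.2 CPM (95% interval 55.2 to 61.3) in cortex-like cells. *Lamc1*, the gamma chain shared by most laminins, was at 203 CPM (95% interval 149 to 271) in sustentacular-like and 100.2 CPM (95% interval 92.2 to 109) in endothelial-like cells, with 18.9 CPM in cortex-like cells. *Lamb2* was highest in endothelial-like cells at 39.6 CPM (95% interval 34.6 to 45.1), followed by 23.5 CPM (95% interval 21.6 to 25.5) in cortex-like cells, and the next gene on the same strand begins 72 bases past its end. The balance of chains thus changed with class. *Lamb1* over *Lamc1* was 3.07 (95% interval 2.77 to 3.42) in cortex-like cells, 1.09 (95% interval 0.714 to 1.66) in sustentacular-like cells and 0.252 (95% interval 0.208 to 0.303) in endothelial-like cells. *Lamb2* over *Lamb1* was 1.57 (95% interval 1.27 to 1.95) in endothelial-like cells against 0.404 (95% interval 0.366 to 0.445) in cortex-like and 0.1 (95% interval 0.0311 to 0.249) in sustentacular-like cells. Endothelial-like cells were the only one of these 3 classes in which *Lamb2* UMIs outnumbered those of *Lamb1*.

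*Lamc3*, a less common gamma chain, was at 18.4 CPM (95% interval 11.8 to 27.4) in noradrenaline against 7.64 CPM (95% interval 5.77 to 9.92) in adrenaline chromaffin-like cells, 20.8 CPM in transitioning noradrenaline-like cells and 0 UMIs in sustentacular-like cells, which allows up to 13.26 CPM at a floor of 3 UMIs. Its 41.04 CPM in fibroblast-like cells rested on 3 UMIs, with an interval that spans the chromaffin levels. In the mixed stromal cluster of 45 cells it was at 87.6 CPM (95% interval 51.03 to 140.3) from 17 UMIs. It was 1 of 6 members at 10 CPM or more in noradrenaline chromaffin-like cells, beside *Sparc*, *Timp3*, *Col27a1*, *Lama4* and *Col25a1*, whereas the 5 in adrenaline chromaffin-like cells were *Col7a1*, *Sparc*, *Col27a1*, *Fbln2* and *Col25a1*. The rarer chains *Lama1* (54 UMIs), *Lama3* (71) and *Lamb3* (10), which belong to embryonic and epithelial laminins, stayed under 100 UMIs in all cells. *Lama3* was highest in endothelial-like cells at 6.48 CPM and *Lama1* had 1.95 CPM in cortex-like cells.

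**Figure D3:**
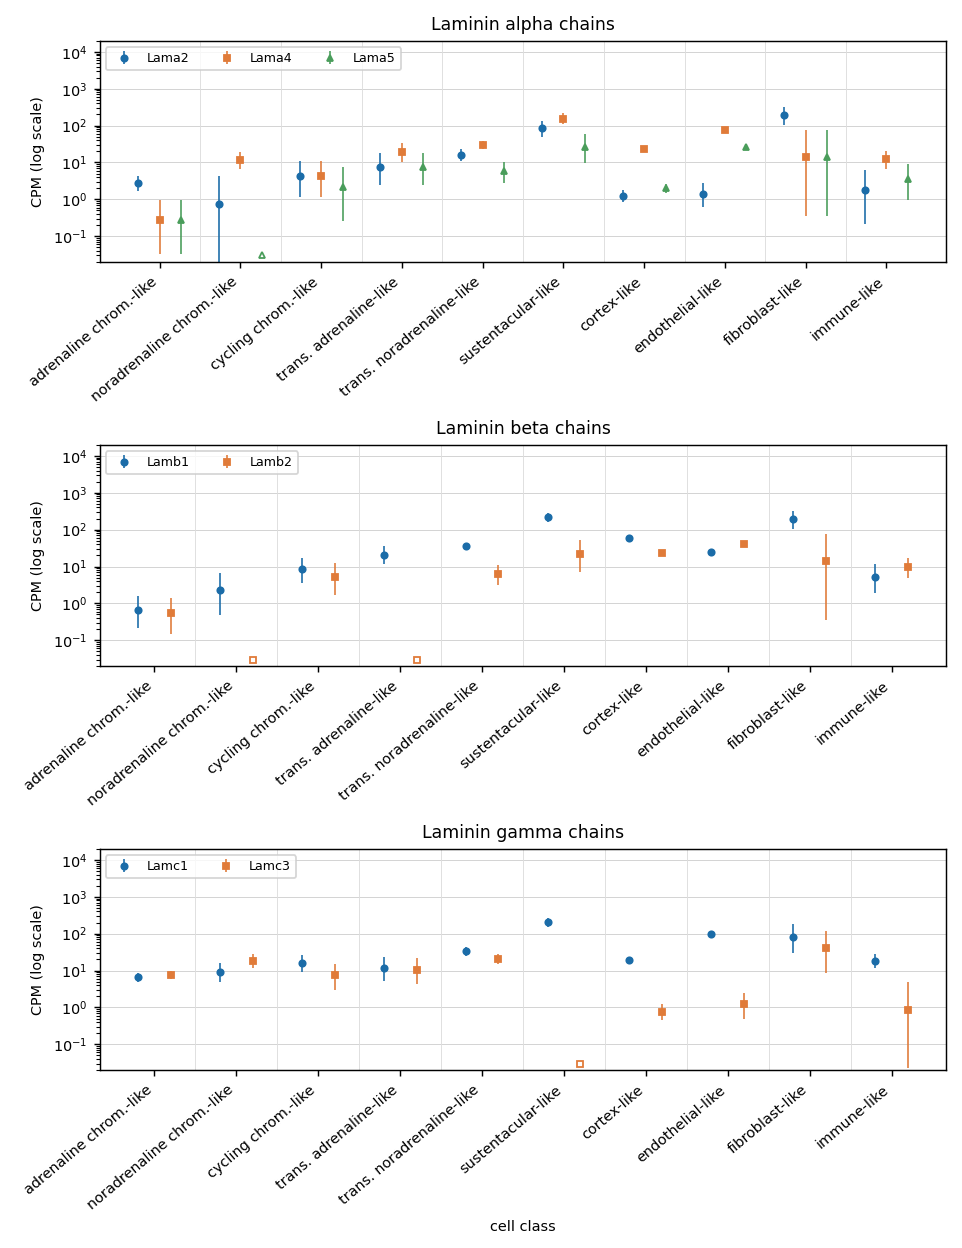
Levels in CPM (log axis) of the laminin chains with at least 100 UMIs, by cell class, with bars for exact 95% intervals and open symbols at the bottom of the axis for 0 UMIs. *Lamb1* exceeds *Lamc1* in cortex-like cells by 3.07 times, and the order is turned in endothelial-like cells, where the ratio is 0.252.

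The multiplexins *Col15a1* and *Col18a1* encode collagens of basement membrane zones, the latter being the source of endostatin. Their classes differed. *Col18a1* was at 813 CPM (95% interval 699.9 to 939.5) in sustentacular-like and 219 CPM (95% interval 125 to 356) in fibroblast-like cells, but at 1.05 CPM (95% interval 0.386 to 2.29) in endothelial-like cells. *Col15a1* was at 178 CPM (95% interval 94.7 to 304) in fibroblast-like, 151 CPM (95% interval 141 to 161) in endothelial-like and 102 CPM (95% interval 64.4 to 152) in sustentacular-like cells, all of which overlapped. A UMI of *Col18a1* was found in 58.7% (95% interval 51.1 to 65.95) of sustentacular-like cells and 0.233% of endothelial-like cells, although the latter were deeper. Thus endothelial-like cells held 1 of the multiplexins and sustentacular-like cells both.

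Of the fibrillar collagens, the chains of collagen I, *Col1a1* and *Col1a2*, and of collagen III, *Col3a1*, are the main structural collagens of connective tissue. *Col1a1* was at 1176 CPM (95% interval 941 to 1453) in fibroblast-like and 402 CPM (95% interval 324 to 494) in sustentacular-like cells, and *Col1a2* at 2120.4 CPM (95% interval 1799.8 to 2482) and 809 CPM (95% interval 696 to 935) in the same order. *Col3a1* was at 1149 CPM (95% interval 917 to 1423) in fibroblast-like and 972 CPM (95% interval 848 to 1109.5) in sustentacular-like cells, which overlapped. In cortex-like cells the 3 genes were at 0.61, 2.36 and 2.48 CPM, and in endothelial-like cells at 1.58, 4.03 and 2.1 CPM. *Col1a1* gave 0.497 UMIs for each of *Col1a2* in sustentacular-like and 0.555 in fibroblast-like cells, whereas *Col3a1* over *Col1a1* was 2.42 (95% interval 1.89 to 3.12) in the former and 0.977 (95% interval 0.714 to 1.33) in the latter. Sustentacular-like cells therefore carried collagen III transcripts at a level near that of fibroblast-like cells with fewer collagen I transcripts. Without the 1 sustentacular-like cell that held *Dcn*, *Lum*, *Pdgfra* or *Dpt*, the *Col3a1* level there was 974 CPM from 219 UMIs. Cells that held only other fibroblast markers were kept.

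Collagen V chains help to set the width of collagen I fibrils. *Col5a2* was at 977 CPM (95% interval 852 to 1114) in sustentacular-like and 274 CPM (95% interval 167 to 423) in fibroblast-like cells, which did not overlap. *Col5a1* was at 219 CPM (95% interval 125 to 356) in fibroblast-like, 53.03 CPM (95% interval 27.4 to 92.6) in sustentacular-like and 35.9 CPM (95% interval 33.5 to 38.3) in cortex-like cells. *Col5a3* was at 83.96 CPM (95% interval 50.5 to 131) in sustentacular-like and 63.5 CPM (95% interval 60.4 to 66.7) in cortex-like cells. The 3 chains differed in class. *Col5a2* over *Col5a1* was 18.4 in sustentacular-like and 0.148 in cortex-like cells. *Col5a2* thus led the 3 chains in sustentacular-like cells and was the lowest of them in cortex-like cells, where *Col5a3* led. *Col11a1*, a fibrillar chain of cartilage that can pair with collagen V, was at 181 CPM (95% interval 130 to 246) in sustentacular-like cells and 41.04 CPM in fibroblast-like cells from 3 UMIs. *Col27a1* was at 216 CPM (95% interval 160.2 to 286) in sustentacular-like cells and, unlike the others of this group, at 29.4 CPM (95% interval 25.7 to 33.6) in adrenaline and 19.97 CPM (95% interval 13.04 to 29.3) in noradrenaline chromaffin-like cells. *Col11a2* (18 UMIs) and *Col24a1* (1) were near the limit of detection and *Col2a1*, the cartilage collagen, had no UMI.

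Fibril-associated collagens sit on the surface of fibrils, and most of those measured were highest in sustentacular-like cells. *Col20a1* was at 269.6 CPM (95% interval 206 to 346), *Col9a2* at 229.8 CPM (95% interval 172 to 301) and *Col16a1* at 168 CPM (95% interval 119 to 230.5) there, against 27.4, 54.7 and 54.7 CPM in fibroblast-like cells, from 2, 4 and 4 UMIs. *Col14a1* was found in more classes, at 219 CPM (95% interval 125 to 356) in fibroblast-like, 159 CPM (95% interval 111 to 220.2) in sustentacular-like and 79.1 CPM (95% interval 63.6 to 97.2) in immune-like cells. Of the members under 100 UMIs, *Col12a1* (69 UMIs) reached 75.1 CPM and *Col9a3* (39) 61.9 CPM in sustentacular-like cells. *Col22a1* had 25 UMIs, and *Col9a1* and *Col19a1* had none.

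Collagen VI forms beaded filaments from the alpha1, alpha2 and alpha3 chains of *Col6a1*, *Col6a2* and *Col6a3*. In fibroblast-like cells, they had 53, 46 and 30 UMIs, at 725 CPM (95% interval 543 to 948), 629 CPM (95% interval 461 to 839) and 410.4 CPM (95% interval 277 to 586). In cortex-like cells, which make steroid hormones, the 3 genes had 7683, 6 and 9 UMIs. *Col6a1* UMIs therefore outnumbered those of *Col6a2* by 1280.5 (95% interval 588 to 3490.4) times in cortex-like cells, against 1.15 (95% interval 0.761 to 1.75) in fibroblast-like cells. A UMI of *Col6a1* was found in 67.3% (95% interval 65.8 to 68.8) of cortex-like cells, against 0.842% of adrenaline chromaffin-like cells, whose median depth was 3166 against 5350.5 UMIs. After thinning to 1000 UMIs, 23.8% of cortex-like cells still held one. In GENCODE vM21, the next gene on the same strand lies 85162 bases downstream of *Col6a1*. In cortex-like cells *Col6a1* was thus counted with almost no UMIs of its partner chains. *Col6a6* (21 UMIs), *Col6a5* (6) and *Col6a4* (2) were rare.

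Of the transmembrane collagens, *Col13a1*, which is anchored in the plasma membrane of many cell types, was at 116 CPM (95% interval 108 to 126) in endothelial-like cells, followed by 27.4 CPM (95% interval 3.31 to 98.8) in fibroblast-like cells from 2 UMIs. *Col25a1*, known from neurons, was at 12.5 CPM (95% interval 10.1 to 15.4) in adrenaline and 10.8 CPM (95% interval 5.88 to 18.04) in noradrenaline chromaffin-like cells. It had 0 UMIs in sustentacular-like cells, which allows up to 13.26 CPM at a floor of 3 UMIs. That floor lies above both chromaffin-like levels, so no difference can be read from the 0. *Col23a1* was at 30.9 CPM (95% interval 12.4 to 63.7) in sustentacular-like and 7.11 CPM (95% interval 6.1 to 8.25) in cortex-like cells. *Col17a1*, of epidermal hemidesmosomes, had 5 UMIs. The transmembrane chains were thus led by different classes, and the 13.7 CPM of *Col25a1* in fibroblast-like cells rested on 1 UMI.

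The promoter windows of *Col28a1* and *Col7a1* are shown because these genes, chosen after their values were seen, stood at opposite ends of the medulla, in glia-like and in adrenaline chromaffin-like cells. *Col28a1*, a collagen known from peripheral nerve and glia, was at 932 CPM (95% interval 811 to 1067) in sustentacular-like cells, 144 CPM in transitioning noradrenaline-like, 98.2 CPM in transitioning adrenaline-like and 95.8 CPM in fibroblast-like cells, and at or under 5.27 CPM in mature chromaffin-, cortex-, endothelial- and immune-like cells. *Col7a1*, the anchoring fibril collagen of skin, was at 47.04 CPM (95% interval 42.2 to 52.3) in adrenaline and 3.84 CPM (95% interval 1.25 to 8.96) in noradrenaline chromaffin-like cells. The windows are from the same RefSeq table, for *Col28a1* at chr6:8192568-8192867 on the minus strand and for *Col7a1* at chr9:108953336-108953635 on the plus strand. In the *Col7a1* window, capitals mark the GGGCGG match and the CCAAT match, which is on the other strand. The *Col28a1* window held none of the 3 motifs and no letter of it is in capitals.
Col28a1: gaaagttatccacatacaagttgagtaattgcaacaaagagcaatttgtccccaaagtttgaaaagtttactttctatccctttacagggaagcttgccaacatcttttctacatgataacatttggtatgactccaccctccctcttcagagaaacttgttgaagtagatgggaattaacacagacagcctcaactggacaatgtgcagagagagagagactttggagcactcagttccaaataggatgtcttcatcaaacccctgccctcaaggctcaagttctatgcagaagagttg
Col7a1: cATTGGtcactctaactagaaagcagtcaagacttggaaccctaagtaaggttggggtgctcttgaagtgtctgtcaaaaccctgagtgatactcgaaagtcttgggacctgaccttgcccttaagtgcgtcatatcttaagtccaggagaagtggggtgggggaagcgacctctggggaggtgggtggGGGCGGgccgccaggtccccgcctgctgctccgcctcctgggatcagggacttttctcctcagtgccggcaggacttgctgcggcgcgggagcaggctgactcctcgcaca

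A UMI of *Col28a1* was found in 58.1% (95% interval 50.5 to 65.4) of sustentacular-like cells, against 0.24% of adrenaline chromaffin-like cells, which were the deeper cells. Among the 69 sustentacular-like cells with a UMI of *Sox10*, the glial transcription factor, 68.12% also held *Col28a1*, and so did 51.82% of the cells without one. The same shares were 53.62% and 50.91% for *Col3a1*, 72.46% and 74.55% for *Fbln5* and 36.23% and 40% for *Postn*. *Col26a1* had 24 UMIs in all and reached 35.4 CPM in sustentacular-like cells. The network collagens *Col8a1* (40 UMIs), *Col10a1* (3) and *Col8a2* (1) were rare in every class.

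Among the glycoproteins, *Sparc*, which encodes a secreted protein that binds collagen and calcium, gave the most UMIs of any member. It was at 13443 CPM (95% interval 12969.6 to 13929.6) in sustentacular-like, 8345 CPM (95% interval 7696 to 9034) in fibroblast-like, 7022 CPM (95% interval 6953 to 7091) in endothelial-like and 5144 CPM (95% interval 5116 to 5172) in cortex-like cells, an order without overlap. By UMIs per cell the order was another, with 34.03 in cortex-like, 18.7 in endothelial-like, 16.99 in sustentacular-like and 12.7 in fibroblast-like cells, against 0.151 in adrenaline chromaffin-like cells. A UMI of *Sparc* was found in 100% of sustentacular-like, 100% of fibroblast-like, 99.8% of cortex-like and 98.9% of endothelial-like cells. In adrenaline chromaffin-like cells the share was 8.78% and in noradrenaline chromaffin-like cells 18.4%, at 34.2 and 99.1 CPM. Of the classes from outside the medulla, the immune-like class, at 15.9% and 1029.8 CPM, came near the share of the chromaffin-like cells.

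*Fbln5*, a fibulin needed for elastic fibres, was at 1246 CPM (95% interval 1105 to 1400.5) in sustentacular-like and 903 CPM (95% interval 698 to 1149) in fibroblast-like cells, and at 16.6 CPM in endothelial-like and 1.3 CPM in cortex-like cells. *Fbln2*, another fibulin, was at 482 CPM (95% interval 396 to 581) in sustentacular-like cells, 68.4 CPM in fibroblast-like and 45.7 CPM in endothelial-like cells, and it stood at 16.4 CPM (95% interval 13.6 to 19.6) in adrenaline and 4.61 CPM (95% interval 1.69 to 10.03) in noradrenaline chromaffin-like cells, without overlap. *Fbln1* was low, with 41.04 CPM in fibroblast-like cells from 3 UMIs. *Postn*, which encodes periostin, was at 672 CPM (95% interval 569 to 787) in sustentacular-like and 178 CPM (95% interval 94.7 to 304) in fibroblast-like cells. The fibronectin gene *Fn1*, a main fibroblast product, had 80 UMIs in all, and stood at 205 CPM (95% interval 115 to 338) in fibroblast-like and 30.8 CPM (95% interval 21.4 to 42.8) in immune-like cells with 0 UMIs in sustentacular-like cells. *Timp3*, the matrix-bound inhibitor of metalloproteinases, was at 4486 CPM (95% interval 4214 to 4770.1) in sustentacular-like, 2468 CPM (95% interval 2428 to 2509.6) in endothelial-like and 2380.4 CPM (95% interval 2039.8 to 2762) in fibroblast-like cells, the last pair overlapping. Per cell, *Timp3* gave 5.67, 6.58 and 3.62 UMIs in these classes and 6.84 in transitioning noradrenaline-like cells. *Postn* and *Fbln2* therefore had their highest level in the glia-like class, and *Fn1* in the fibroblast-like class.

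Sustentacular-like cells were then compared with mature chromaffin-like cells (adrenaline and noradrenaline together), the question being how the support cells of the medulla differ from the cells they surround. A gene was called higher where its level plus 10 CPM was at least 4 times that of the other group plus 10 and it had at least 10 UMIs in the first group. Of the members, 27 of the 32 with at least 20 UMIs over both groups were called higher, against 4.12% of all 11827 genes compared. A gene with 10 or fewer UMIs in chromaffin-like cells entered only with at least 10 in sustentacular-like cells, which alone made the call. For such members the call was thus fixed by the filter, which all genes compared shared. Among them were *Fbln5*, *Col3a1*, *Col5a2*, *Col28a1*, *Postn*, *Col9a2*, *Lamb1*, *Col16a1*, *Col14a1*, *Col15a1*, *Col5a3* and *Col12a1*. They are part of the 27 and of the median fold that follows, so the filter set part of both. The median fold, with 10 CPM added, was 18.5 over the members and 0.889 over all genes. By that fold the leading members were *Sparc*, at 13443 against 44 CPM, 306-fold (95% interval 274 to 341) higher without the added 10, and *Timp3*, at 4486 against 11.3 CPM, 395-fold (95% interval 321 to 491) higher. *Col4a1* followed at 2108 against 3.24 CPM, 650.1-fold (95% interval 444 to 989), with *Fbln5* at 1246 against 1.04 CPM and *Col3a1* at 972 against 1.04 CPM. The other 22 were *Col5a2*, *Col28a1*, *Col4a2*, *Col18a1*, *Col1a2*, *Postn*, *Fbln2*, *Col1a1*, *Col20a1*, *Col9a2*, *Lamb1*, *Lamc1*, *Col27a1*, *Col11a1*, *Col16a1*, *Col14a1*, *Lama4*, *Col15a1*, *Col6a1*, *Col5a3*, *Lama2* and *Col12a1*. Counted as UMIs per cell in place of CPM, 20 of these 27 were called, against 1.556% of genes. Those not called were *Col12a1*, *Col15a1*, *Col27a1*, *Col5a3*, *Col6a1*, *Lama2* and *Lamc1*. Apart from the calls fixed by the filter, those called included the basement membrane chains *Col4a1* and *Col4a2* and the fibrillar chains *Col1a1* and *Col1a2*. Of the fibril-associated chains only *Col20a1* was then left.

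Of the 50 other genes of matrix assembly and turnover, 12 of the 32 compared were called higher in sustentacular-like cells, against 4.12% of all genes. The largest folds were those of *Nid1* (nidogen, a laminin binder) at 459.6 against 0.811 CPM, *Serpinh1* (the collagen chaperone) at 318 against 9.84 CPM and *Hspg2* (perlecan) at 168 against 0.926 CPM. The calls of *Nid1* and *Hspg2*, with few UMIs in chromaffin-like cells, were fixed by the same filter. It thus set part of the 12. Fibroblast markers in sustentacular-like cells summed to 124 CPM, and the part of fibroblast RNA in these levels was not tested.

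Transitioning-like cells carry markers of both sustentacular and chromaffin cells. Compared with mature chromaffin-like cells, 14 of the 35 members with enough UMIs were called higher, against 0.872% of all 12273 genes, with a median fold of 3.53 over the members and 1.02 over all genes. These were *Timp3* (1060.2 against 11.3 CPM), *Sparc* (2304 against 44), *Col4a1* (315 against 3.24), *Fbln5* (199 against 1.04), *Col5a2* (146 against 1.16), *Col28a1*, *Col3a1*, *Col1a2*, *Col4a2*, *Col18a1*, *Postn*, *Fbln2*, *Col20a1* and *Col1a1*. *Nid1* was called among 34 other matrix genes, at 81.1 against 0.811 CPM. Both this comparison and the one before it share the chromaffin-like cells.

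The transitioning levels were set beside those of sustentacular-like cells for the 16 members with at least 50 UMIs in the latter. In transitioning noradrenaline-like cells the level was 0.1252 to 0.2611 times that of sustentacular-like cells, with a median of 0.1581, and the summed sustentacular markers stood at 0.176 times. In transitioning adrenaline-like cells it was 0.08094 to 0.2132 times, with a median of 0.09733, and the markers stood at 0.117 times. The sustentacular markers thus lay within the range of the members in both classes. Counted per cell, the deeper transitioning cells held 0.5782 to 1.206 times as many UMIs of these members for noradrenaline and 0.4608 to 1.214 times for adrenaline as sustentacular-like cells, with medians of 0.7305 and 0.5541. Median total UMIs per cell were 4665.5 and 6298.5 in these transitioning classes against 1149 in sustentacular-like cells, and the part of depth in the CPM difference was not tested beyond these values. The plot of members along these classes shows the steps.

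**Figure D4:**
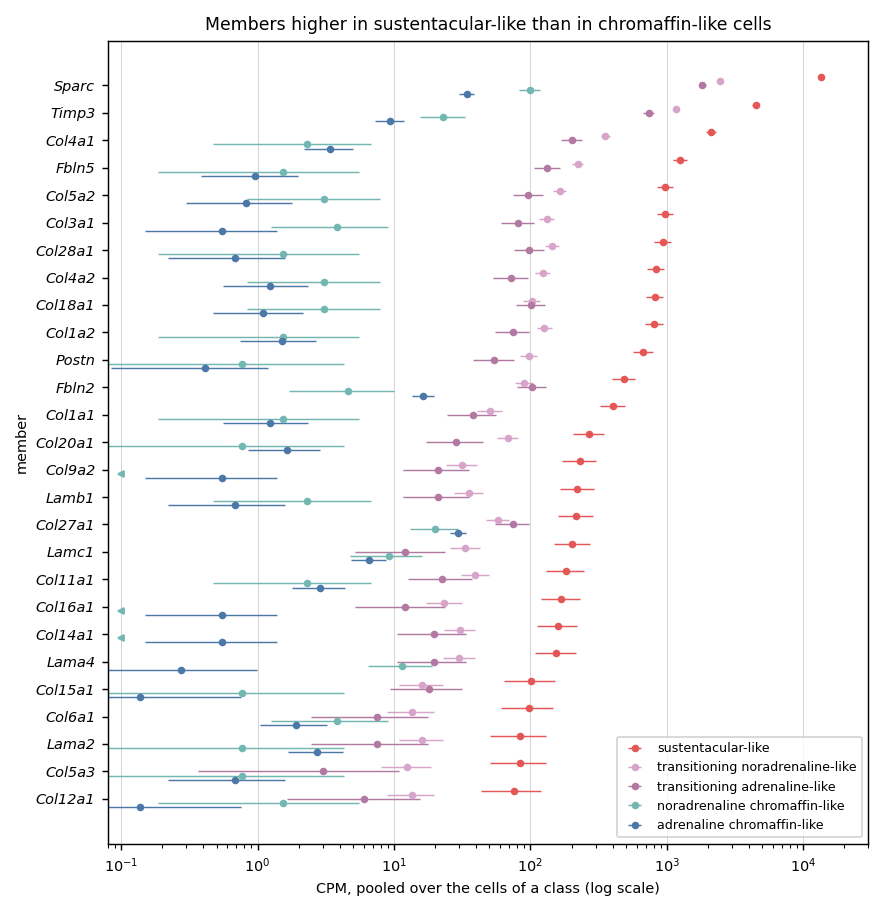
Levels in CPM (log axis) of the 27 members called higher in sustentacular-like than in chromaffin-like cells, which were thus picked for being high at 1 end. The classes are adrenaline and noradrenaline chromaffin-like, both transitioning and sustentacular-like cells, with exact 95% intervals as bars and symbols at the edge of the axis for 0 UMIs. By CPM the transitioning classes lie between, at a median of 0.1581 (noradrenaline) and 0.09733 (adrenaline) times the sustentacular-like level. These medians are over the 16 members with at least 50 UMIs in sustentacular-like cells.

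Within the mature chromaffin-like cells, *Col7a1* was the member called different between subtypes. It stood at 47.04 CPM in adrenaline and 3.84 CPM in noradrenaline cells, 12.2-fold (95% interval 5.2 to 37.97), and was found in 18.1% (95% interval 16.3 to 20.04) and 1.29% (95% interval 0.422 to 2.997) of cells. Of 13 members compared, 1 was thus called higher in adrenaline cells, against 0.346% of 11568 genes, and 0 were called higher in noradrenaline cells, against 0.458%. *Lama4* and *Lamc3*, higher in noradrenaline cells without overlap, were not called. *Col7a1* differed in the same way between the transitioning classes, with 40.8 CPM (95% interval 26.9 to 59.3) in transitioning adrenaline-like and 8.3 CPM (95% interval 4.75 to 13.5) in transitioning noradrenaline-like cells. Sustentacular-like cells had 1 UMI of it. Of 26 other matrix genes, 1 was called in each direction. *Plod2*, a collagen lysyl hydroxylase, was at 61.4 CPM in noradrenaline and 4.64 CPM in adrenaline cells, and *Smoc2*, a secreted calcium-binding matrix protein, at 52.9 CPM in adrenaline and 3.84 CPM in noradrenaline cells. *Col7a1* was also the member called when adrenaline, noradrenaline and cycling chromaffin-like cells together were compared with the remaining classes, at 38.3 against 1.83 CPM and 20.9-fold (95% interval 15.9 to 27.7). This was 1 of 49 members compared, against 2.23% of 15103 genes, with *Smoc2* called of the other matrix genes. With the other classes weighted equally, under the stricter cell filter or with UMIs per cell in place of CPM, no member was called in this last comparison. Of all genes, 0.07945%, 2.06% and 1.907% were called in these settings. The next gene on the same strand, *Ucn2*, lies 1135 bases past *Col7a1* and had 8 UMIs in adrenaline chromaffin-like cells.

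Each remaining class was compared with all other named cells pooled, in which a class weighs by its UMIs and cortex-like cells weigh most, followed by adrenaline chromaffin-like cells. Fibroblast-like cells led this set. Of 49 members compared, 18 were called higher, against 1.42% of 15103 genes, and the median fold was 3.9 over the members and 0.883 over all genes. The leading members were *Col1a2* at 2120.4 against 13.6 CPM (156-fold), *Col1a1* at 1176 against 5.77 CPM (204-fold), *Col6a2* at 629 against 0.73 CPM, *Col3a1* at 1149 against 14.8 CPM and *Col6a3* at 410.4 against 1.12 CPM. The others were *Col4a1*, *Col4a2*, *Fbln5*, *Col5a1*, *Col5a2*, *Col4a4*, *Fn1*, *Lama2*, *Col14a1*, *Postn*, *Col18a1*, *Col15a1* and *Lamb1*. Of the 44 other matrix genes compared, 7 were called, led by *Loxl1* (301 against 2.33 CPM), *Adamts2* (219 against 1.003) and *Lox* (150.5 against 0.388), which crosslink collagen or trim its propeptides. With 48 cells and 73098 UMIs, 1 UMI in this class equals 13.68 CPM and 3 UMIs equal 41.04 CPM. With UMIs per cell in place of CPM, 12 of the 18 were called, against 0.6158% of genes.

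The mixed stromal cluster of 45 cells, set apart after its markers were seen, held many of the same transcripts. *Col1a2* was at 701 CPM (95% interval 588 to 829), *Col3a1* at 474 CPM (95% interval 382 to 581), *Col1a1* at 227 CPM (95% interval 165 to 304) and *Col6a1* at 247 CPM (95% interval 182 to 328) there. The basement membrane chains were higher, with *Col4a1* at 3303 CPM (95% interval 3052 to 3569) and *Col4a2* at 1118 CPM (95% interval 974 to 1277), beside *Timp3* at 4107 CPM (95% interval 3826 to 4402) and *Sparc* at 8110.4 CPM (95% interval 7715 to 8521). Of all 1015 *Col1a2* UMIs, 262 lay in cells of no class, 136 of them in this cluster. With the cluster joined to the fibroblast-like cells, 17 members were called, 15 of them among the 18, against 1.547% of genes. The level in the highest class then lay outside its interval for 12 members and within it for 28. The fibroblast-like levels and orders given above are thus those without this cluster.

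Sustentacular-like and fibroblast-like cells, the leading classes, were compared with each other directly, a comparison chosen after their values were seen. Of 30 members compared, 4 (13.3%) were called higher in sustentacular-like cells, against 7.73% of 2588 genes: *Lama4* (155 against 13.7 CPM), *Col20a1* (269.6 against 27.4), *Col28a1* (932 against 95.8, 9.74-fold, 95% interval 4.64 to 24.5) and *Fbln2* (482 against 68.4). Their fibroblast-like values rested on 1, 2, 7 and 5 UMIs in that order, so the size of these differences is poorly measured. A further 3 were called higher in fibroblast-like cells, against 3.59%: *Col6a2* (629 against 35.4), *Col6a1* (725 against 97.2) and *Col6a3* (410.4 against 70.7). The 3 chains of collagen VI were called together. The other 23 members compared passed in neither direction, among them *Col3a1*, *Col4a1*, *Timp3* and *Sparc*.

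Endothelial-like cells had 5 of 49 members called, against 2.9% of genes, with a median fold of 0.881 over the members and 0.95 over all genes. *Col4a1* was at 1692 against 164 CPM (10.3-fold, 95% interval 9.996 to 10.7), *Timp3* at 2468 against 311 CPM, *Col4a2* at 735 against 78.7 CPM, *Col13a1* at 116 against 2.83 CPM (41.2-fold, 95% interval 33.5 to 50.9) and *Col15a1* at 151 against 7.48 CPM. Of the other matrix genes, 7 of 44 were called, led by *Adamts1* (408 against 14.7 CPM), *Nid1* (359 against 19.9) and *Hspg2* (289 against 32.7). With the other classes weighted equally, *Col13a1* was the 1 member called, against 2.013% of genes.

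Within endothelial-like cells, a cluster of 222 cells differed from the other 1921, a comparison chosen after the clusters were seen. Of 22 members compared, 3 were called higher in it, against 0.444% of 10370 genes, while no member was called in the other 4 clusters, against 0%, 0.116%, 0.839% and 0% of genes. These were *Fbln5* (177 against 4.71 CPM, 37.6-fold, 95% interval 23.5 to 61.9), *Fbln2* (374 against 21.3 CPM) and *Col14a1* (162 against 6.96 CPM). A UMI was found in 22.1% against 1.04% of cells for *Fbln5* and in 38.7% against 4.48% for *Fbln2*. All 8 fibroblast markers were at 0 UMIs in this cluster. Its endothelial markers summed to 8528 against 7685 CPM, while its arterial markers summed to 63.1 against 198 CPM. Its lymphatic endothelial markers summed to 1132 against 373 CPM, a rise that came from *Lyve1*. Of the rest of that list, *Flt4* was lower by CPM than in the other endothelial-like clusters, *Prox1* had few UMIs and *Pdpn* had none. A lymphatic identity of this cluster was not tested.

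Cortex-like cells had 2 of 49 members called, against 1.54% of genes, with a median fold of 0.737 over the members and 0.921 over all genes. These were *Col6a1* at 312 against 9.94 CPM (31.4-fold, 95% interval 27.2 to 36.4) and *Col5a3* at 63.5 against 3.57 CPM (17.8-fold, 95% interval 13.97 to 22.97). Of the other matrix genes, 3 of 44 were called: *Pcolce* (procollagen trimming enhancer) at 283 against 20.4 CPM, *Plod2* at 224 against 18.9 CPM and *Smoc1* at 53.8 against 2.59 CPM. With the other classes weighted equally, no member was called, and with UMIs per cell in place of CPM, 5 were. The shares of genes called were then 1.344% and 3.695%.

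A cluster of 824 cortex-like cells stood apart from the other 2896, again a comparison chosen after the clusters were seen. *Timp3* was at 982 against 89.4 CPM (10.98-fold, 95% interval 10.4 to 11.6) and *Col4a1* at 441 against 95.3 CPM, 2 of 36 members compared, against 0.916% of 12667 genes, while no member was called in the other 3 clusters, against 0.126%, 0.0316% and 0.868% of genes. In contrast *Col6a1* was at 78.8 against 379.9 CPM there, 0.207-fold (95% interval 0.188 to 0.229), and was found in 35.9% against 76.2% of cells. The largest cortex-like cluster had the reverse for *Col6a1*, at 464 against 199.5 CPM in the other clusters. The cluster of 824 cells carried outer cortex markers at 1020.2 against 65.6 CPM and endothelial markers at 970.3 against 46.1 CPM. Per endothelial marker UMI, it held 1.01 UMIs of *Timp3* against 0.319 in endothelial-like cells, and 0.455 against 0.219 of *Col4a1*. For *Col13a1* the values were 0.0112 against 0.015. The other cortex-like clusters held 1.94 UMIs of *Timp3*, 2.07 of *Col4a1* and 0.0137 of *Col13a1* per endothelial marker UMI. The part of endothelial RNA in the calls of this cluster was not tested. The plot of clusters within classes shows both clusters.

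**Figure D5:**
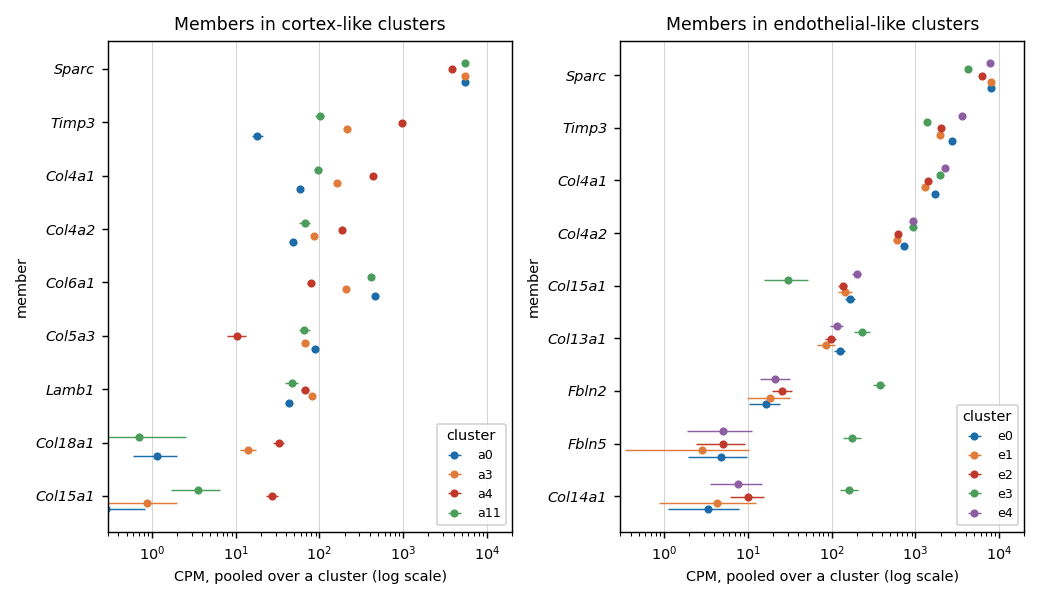
Levels in CPM (log axis) of members in the clusters of the cortex-like and endothelial-like classes, with bars for exact 95% intervals. One cortex-like cluster has more *Timp3* (982 against 89.4 CPM in the others) and less *Col6a1*, and one endothelial-like cluster has more *Fbln5* (177 against 4.71 CPM).

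Immune-like cells had 1 of 49 members called, against 2.86% of genes, and none of the 44 other matrix genes. It was *Col14a1*, at 79.1 against 5.8 CPM, 13.6-fold (95% interval 10.6 to 17.4). It was called neither with the other classes weighted equally nor with UMIs per cell in place of CPM. In those settings 2.655% and 1.265% of genes were called. Levels of the other members in immune-like cells were set beside the endothelial markers in the same cells. Per endothelial marker UMI, immune-like cells held 0.999 UMIs of *Sparc* against 0.907 in endothelial-like cells, 0.236 against 0.219 of *Col4a1* and 0.0844 against 0.0949 of *Col4a2*. The intervals overlapped for *Col4a1* and *Col4a2* and lay apart for *Sparc*, as they did for *Timp3*, at 0.402 against 0.319. The values for *Col14a1* were 0.0767 against 0.00229, for *Fn1* 0.0298 against 0.000181 and for *Col18a1*, with 13 and 6 UMIs, 0.0111 against 0.000136. The part of RNA from endothelial or other classes in these levels was not tested.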

How the data were processed

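Counts are whole-number UMIs per gene and barcode, deposited without normalization. Per the labels, the authors prepared 1 library with the 10x Genomics 3′ v3.1 kit, and the submitters' processing notes name Cell Ranger 4.0.0 and mm10. The strand setting of the counting is not given in the sources used here. Every column belonged to the 1 labelled group.

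Cells with 500 to 5000 genes and at most 20% mitochondrial UMIs were kept, 10139 of 11214 barcodes, with a median of 3567 UMIs. Clustering followed the settings of the study's methods (2000 variable features, resolution 0.4, 10 principal components) in Seurat 5.3.0 under R 4.3.3, with Matrix 1.6.5 and SeuratObject 5.2.0, except that the 27 members among the variable features were removed. Doublets were called with Scrublet in scanpy 1.11.5 at an expected rate of 8%. Medullary clusters were clustered again with the same settings, in 3 passes, and so were endothelial and stromal clusters. A name was given where a cluster showed 3 or more markers of the type, each in 50% or more of its cells (25% for the sustentacular, cycling, fibroblast, mural, arterial and lymphatic lists). These percentages, the second stromal clustering and the removal of clusters with more than 25% called doublets from the classes were chosen after the data had been seen. The split into adrenaline and noradrenaline, mature and transitioning, rested on 1 gene. A cluster with *Pnmt* in 50% or more of its cells was named adrenaline, and otherwise noradrenaline. *Pnmt* was found in 15.03% of mature and 30.61% of transitioning noradrenaline-like cells. The members, gene lists and comparisons were chosen with earlier results of these data known.

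Levels were pooled per class in Python 3.11.15 (numpy 2.4.6, scipy 1.17.1, pandas 2.3.3; figures with matplotlib 3.10.9). Counts have exact Poisson, shares exact binomial and ratios exact conditional 95% intervals. For shares at equal depth, each cell was thinned to 1000 UMIs, and cells with fewer were left out, from 0 of 92 transitioning adrenaline-like to 56 of 179 sustentacular-like and 19 of 48 fibroblast-like cells. The call (a fold of at least 4 with 10 CPM added and at least 10 UMIs, among genes with at least 20 UMIs over both groups) was checked on simulated counts. All members are named, members with at least 100 UMIs are given with values, and the 5 largest folds among those called and the 3 largest among other matrix genes are given per comparison. Alternatives changed the variable features, resolution (0.2 and 0.8), principal components (30), doublets, fold (2) and pseudocount (1 CPM). Others changed the cell filter (1000 genes or more, 10% mitochondrial UMIs or less), filter on low counts and weights. Another left out cells with *Dcn*, *Lum*, *Pdgfra* or *Dpt*, though not cells with only other fibroblast markers, from all classes but the fibroblast-like one. UMIs per cell in place of CPM and the joining of a mixed stromal cluster to the fibroblast-like class were added after seeing the data. Gene positions are from GENCODE vM21 and promoter sequences from RefSeq (GRCm38.p6). The values of 1 member are not reported here.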

Additional observations from a re-analysis of the deposited data

How the results depend on the processing

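No paired analysis was possible because there is 1 library, and for the same reason no replicate could be left out. The counts of members called in fibroblast-like cells (12 to 21 against 18) and in sustentacular-like against chromaffin-like cells (20 to 30 against 27) stayed within 1.5 times under the alternatives that gave a value. The share of all genes called ran from 0.6158% to 2.443% in the former and from 1.556% to 7.212% in the latter. With a fold of at least 2, the counts became 9 in endothelial-like (5 as reported), 5 in cortex-like (2), 2 in immune-like (1), 2 in chromaffin-like (1) and 24 in transitioning-like cells (14), and 2 between chromaffin subtypes (1). The shares of all genes called were then 8.065%, 5.635%, 6.833%, 7.508%, 3.121% and 4.296% in that order. With 1 CPM added, the counts were 8, 4 and 2 in endothelial-like, cortex-like and immune-like cells, 26 in transitioning-like cells and 2 between subtypes. The shares were 6.25%, 3.887%, 5.025%, 2.893% and 3.536% of genes. With equal weights of the other classes, the counts fell to 1 in endothelial-like cells, where *Col13a1* was left. They fell to 0 in cortex-like, immune-like and chromaffin-like cells. The shares for these 4 were 2.013%, 1.344%, 2.655% and 0.07945% of genes. In immune-like cells the counts were 2 at resolution 0.8 and 2 with the mean over cells, against 3.185% and 2.893% of genes. The count in chromaffin-like cells was 0 under the stricter cell filter, against 2.06%. With UMIs per cell in place of CPM, the counts were 5 in cortex-like cells and 0 in immune-like and in chromaffin-like cells. The shares were 3.695%, 1.265% and 1.907% of genes. Across these settings, 14 of 14 members were called every time in transitioning-like, 20 of 27 in sustentacular-like and 12 of 18 in fibroblast-like cells (not *Col15a1*, *Col18a1*, *Col5a1*, *Col5a2*, *Lamb1* and *Postn*). Of the folds of single members, 671 kept within their interval and 189 moved, and none reversed. The moves were uneven over the settings. With 1 CPM added 59 moved and 10 kept, and with UMIs per cell in place of CPM 54 moved and 15 kept. With equal weights 19 moved and 8 kept, and at most 17 moved in any other setting. Of the levels of single members in their highest class, 370 kept within their interval and 15 moved. Joining the mixed stromal cluster to the fibroblast-like class gave 12 of these moves. The cause of these changes was not tested. Under no setting did a cluster show the mural markers without those of another type, so the mural comparison was not made. The stricter cell filter gave no sustentacular-like, fibroblast-like or immune-like class, leaving the endothelial clusters unsplit gave no fibroblast-like class, and no transitioning adrenaline-like class was separate at resolution 0.2, with 30 principal components or with members kept among the variable features. No cycling class was separate at resolution 0.2. Levels in fibroblast-like cells rest on 73098 UMIs and in sustentacular-like cells on 226286 UMIs, which limits their precision.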
